A study of Mus musculus with 483 samples.

Results

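The 10 genes described here mark mesenchyme and smooth muscle. They are the PDGF receptor genes Pdgfra and Pdgfrb, the contractile genes Acta2, Tagln, Cnn1 and Myl9, and the transcription factor genes Prrx1, Twist1, Snai2 and Zeb2. They were taken by name from a table of 46078 mouse genes, and all 10 had a read in at least 10 cells. Each was read in clusters 4 and 5 of the submitters' clustering, where mesenchyme genes are high, in the endothelial clusters 1 to 3, and by treatment.

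The study sequenced 483 single mouse cells from the aorta, gonads and mesonephros region of the embryo (AGM), where the first blood stem cells arise. All cells had been sorted as CD31 positive, Kit positive and CD45 negative. Of them, 50.5% were labelled aDll4-treated and the rest Ctrl. The labels do not spell out aDll4, the title concerns the Notch ligand Dll4, and the labels used here name no strain, embryo age, dose or embryo of origin. Both treatments share the sort and the full-length Smart-seq2 library method. The labels also place each cell in 1 of 7 clusters made with ICGS, a clustering of single cells on guide genes. Cluster 4 held 22 cells (12 treated, 10 Ctrl), cluster 5 held 13 (7 treated, 6 Ctrl), clusters 1 to 3 held 395 (49.1% treated), and the blood cell clusters 6 and 7 held 53 (31 treated, 22 Ctrl).

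Treated cells had 123097 to 2451790 reads assigned to genes (median 869802) and Ctrl cells 136928 to 2870618 (median 900286). With no embryo named, each treatment is 1 sample and cells are not replicates, so there is no test of treatment and no p-value. Levels are reads summed over a group of cells per 1000000 summed gene-assigned reads (CPM), and their exact Poisson 95% intervals cover counting error only. Shares of cells carry exact Clopper-Pearson 95% intervals with the same limit. Library numbers in the labels fall into block 1 (354 cells, 50.3% treated) and block 2 (66 treated and 63 Ctrl cells). Sex-linked reads show that these cells came from embryos of both sexes. In clusters 4 and 5, all 10 treated cells of block 1 had 10 reads or more of Y-linked genes, summed, and fewer than 10 of Xist. All 9 treated cells of block 2 had the reverse. By the same minimum, 7 Ctrl cells of block 1 had Xist alone and 2 had Y-linked genes alone. In block 2 the Ctrl counts were 2 and 5. Embryo and treatment cannot be told apart in these cells.

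Mesenchyme is the loose connective tissue of the embryo, and around the aorta it gives rise to fibroblasts, pericytes and the smooth muscle of the vessel wall. PDGF receptors are tyrosine kinases that carry growth and migration signals from PDGF ligands, which endothelium among others secretes. Smooth muscle identity is marked by contractile proteins whose genes are switched on by serum response factor (SRF) with its partner myocardin, through promoter elements called CArG boxes. Twist1, Snai2 and Zeb2 bind E-box elements and are best known for driving the change from epithelium or endothelium to mesenchyme.

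Promoter letters are shown for 3 of the contractile genes, because these genes were high together in cluster 5. Each line gives the 250 bases before the RefSeq transcript start, read 5′ to 3′ on the gene's strand in build GRCm38.p6. Capitals mark CArG boxes in which at most 1 base of the core is neither A nor T. Acta2 lies on the minus strand at chr19:34255374-34255623, Cnn1 on the plus strand at chr9:22099003-22099252, and Myl9 on the plus strand at chr2:156775214-156775463.
Acta2: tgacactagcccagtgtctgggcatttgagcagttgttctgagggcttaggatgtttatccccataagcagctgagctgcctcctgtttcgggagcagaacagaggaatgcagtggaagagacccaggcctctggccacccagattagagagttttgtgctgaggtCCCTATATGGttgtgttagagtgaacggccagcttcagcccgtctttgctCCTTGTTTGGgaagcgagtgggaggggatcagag
Cnn1: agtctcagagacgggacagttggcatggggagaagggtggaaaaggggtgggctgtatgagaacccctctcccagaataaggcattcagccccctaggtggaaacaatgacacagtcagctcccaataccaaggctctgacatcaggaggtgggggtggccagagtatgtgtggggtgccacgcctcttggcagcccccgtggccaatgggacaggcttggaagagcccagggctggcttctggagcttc
Myl9: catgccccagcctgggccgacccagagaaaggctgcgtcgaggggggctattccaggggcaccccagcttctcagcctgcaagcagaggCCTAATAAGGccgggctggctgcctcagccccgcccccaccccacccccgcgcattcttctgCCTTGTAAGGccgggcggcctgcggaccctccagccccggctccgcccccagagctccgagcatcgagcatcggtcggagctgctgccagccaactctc
The Acta2 boxes begin 84 and 34 bases before the start, and each has 1 such base. Of the Myl9 boxes, the first has no such base, and the second, 99 bases before the start, has 1. No box was found in the Cnn1 window. On both strands, the exact box occurred in 1.47% of 32851 RefSeq promoters of this length and the looser one in 8.59%. Of the 10 genes, 7 had an entry in the promoter table, and Pdgfrb, Tagln and Snai2 had none. The other promoters found, those of Pdgfra, Prrx1, Twist1 and Zeb2, held no box of either kind. The E-box letters CANNTG occurred 3 times in the Acta2 window, once each in those of Cnn1 and Pdgfra, and in 66.2% of all promoters. These matches describe letters and are not shown to be bound.

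Clusters 4 and 5 differed in which of the 10 genes they carried. Cluster 5 was led by the contractile genes, while cluster 4 carried more Pdgfra, Prrx1 and Twist1 than cluster 5 and little Acta2 or Cnn1. Per kilobase of exon, the order in cluster 5 was Acta2 at 2112 CPM, Myl9 at 819, Tagln at 423, Cnn1 at 101.2, Snai2 at 88.8, Pdgfrb at 49.7, Pdgfra at 12.7, Zeb2 at 6.22, Prrx1 at 4.63 and Twist1 at 4.23. Only the intervals of Prrx1 and Twist1, neighbours in that order, overlapped, by counting error alone. Single cells moved the order. Without the highest cell of each gene, and not divided by exon length, Cnn1 stood at 71.7 CPM and Snai2 at 125.1 CPM. In cluster 4 the order was Myl9 at 109.2 CPM per kilobase, Snai2 at 42, Prrx1 at 22.2, Pdgfra at 19.7, Pdgfrb at 16.2, Twist1 at 9.90, Tagln at 6.73, Acta2 at 2.73, Zeb2 at 1.86 and Cnn1 at 0.214, with no neighbours overlapping in counting error. Against clusters 1 to 3, 6 of the 10 genes were at least 2-fold higher in cluster 4, where 13.2% of all 18589 measured genes were. Only 1 (Acta2) was at least 2-fold lower, where 16% were. That call rested on 11 cells of clusters 1 to 3. Without them Acta2 stood at 2.26 CPM there, below the 6.01 CPM of cluster 4. Its median per cell was 1.64 CPM in clusters 1 to 3 and 1.63 CPM in cluster 4. In cluster 5 all 10 were at least 2-fold higher, where 12% of measured genes were, and none was 2-fold lower, where 16.4% were. The submitters built the clusters on these cells, so these contrasts only describe them. The share of cells carrying each gene in each set of clusters is drawn in the plot of cells with reads.

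**Figure D1:**
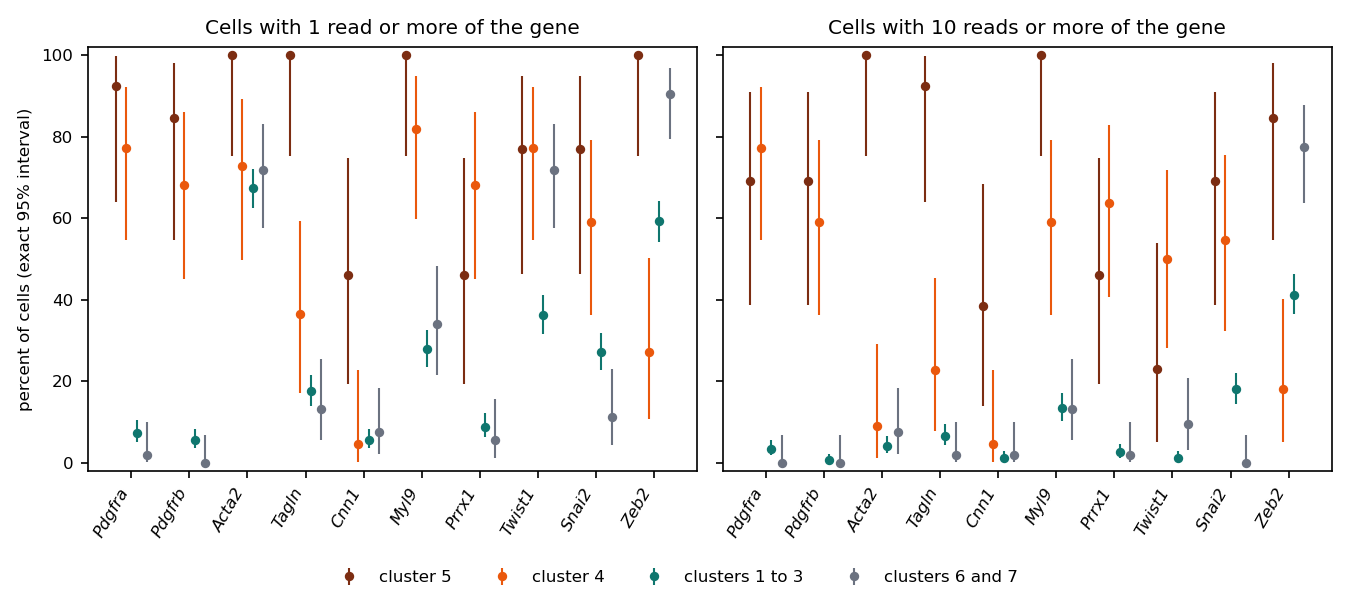
Percent of cells with 1 read or more (left) and with 10 reads or more (right) of each gene in cluster 5, cluster 4, clusters 1 to 3 and clusters 6 and 7, with exact Clopper-Pearson 95% intervals that cover counting error only. Acta2 had a read in 67.3% of the cells of clusters 1 to 3 but 10 reads or more in 4.05%, while Snai2 and Zeb2 kept 18% and 41.3%.

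Among the receptors, Pdgfra (chr5:75152292-75198215, plus strand, mm10) is a general marker of embryonic fibroblast-like mesenchyme. It stood at 197.4 CPM (191.3 to 203.5) in cluster 4, 127.5 CPM (121.9 to 133.3) in cluster 5 and 1.53 CPM (1.40 to 1.66) in clusters 1 to 3. Of the cells of cluster 4, 17 of 22 had 10 reads or more, and of those of cluster 5, 9 of 13. Across the 22 cells of cluster 4 the level ran from 0 over a median of 135.6 to 721 CPM. Pdgfrb (chromosome 18), the receptor of pericytes and smooth muscle, was higher in cluster 5 than in cluster 4, at 272 CPM (264 to 281) against 88.9 CPM (84.8 to 93). It had no read in the 53 cells of clusters 6 and 7, which allows a share of up to 5.66% of cells with a read when 0 is set to 3 cells of the total (6.72% as the exact upper limit). The receptors were not confined to the same cells. In cluster 4, 12 of 22 cells had 10 reads or more of both, and in cluster 5, 6 of 13 did.

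Acta2 (chr19:34241090-34255590, minus strand) encodes smooth muscle alpha-actin. Of the 10 genes it stood furthest apart between the clusters: all 13 cells of cluster 5 held at least 248.6 CPM of it, at a summed 4639 CPM (4605 to 4673), while cluster 4 stood at 6.01 CPM (4.99 to 7.17), with 10 reads or more in 2 of 22 cells. Tagln (chr9:45929619-45936058, minus strand) encodes transgelin, an actin-binding protein of smooth muscle. It stood at 841 CPM (827 to 856) in cluster 5, where 12 of 13 cells had 10 reads or more, and at 13.4 CPM (11.8 to 15.1) in cluster 4, where 5 of 22 did. Cnn1 (chr9:22099216-22109630, plus strand) encodes calponin 1, found in differentiated smooth muscle. Its 277 CPM (269 to 285) in cluster 5 rested on few cells: 5 of 13 had 10 reads or more, and 1 treated cell held 77.9% of the reads. In cluster 4, 1 Ctrl cell held all 12 reads. Myl9 (chr2:156775420-156781658, plus strand) encodes a regulatory light chain of smooth muscle and non-muscle myosin. It was the contractile gene that cluster 4 also carried, at 126.9 CPM (122.1 to 131.9) in 13 of 22 cells with 10 reads or more, against 952 CPM (937 to 968) in all 13 cells of cluster 5. Acta2 has near-identical coding copies among the other actin genes, and Myl9 among the other myosin light chains. How reads matching several copies were counted is not given in the sources used here, so small counts of either are uncertain. The close relative Actg2 stood at 429 CPM in cluster 5.

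Of the transcription factors, Prrx1 (chr1:163245119-163313710, minus strand), a homeobox factor of limb and trunk mesenchyme, was the one most tilted to cluster 4. It stood at 246 CPM (239.4 to 253.1) there, with 10 reads or more in 14 of 22 cells, and at 51.3 CPM (47.8 to 55) in cluster 5, with 6 of 13 cells. Twist1 (chr12:33957671-33959829, plus strand), a basic helix-loop-helix factor, was low everywhere: 16.1 CPM (14.4 to 17.9) in cluster 4 and 6.89 CPM (5.64 to 8.33) in cluster 5. Snai2 (chr16:14705852-14709385, plus strand), a zinc finger repressor, stood at 84.9 CPM (81 to 89) in cluster 4 and 179.5 CPM (172.9 to 186.3) in cluster 5. Zeb2 (chr2:44983632-45117395, minus strand), another zinc finger repressor, followed a pattern of its own. It had 10 reads or more in 11 of 13 cells of cluster 5, in 4 of 22 cells of cluster 4, in 41.3% of the 395 cells of clusters 1 to 3 and in 41 of 53 blood cells. Zeb2 is also known to act in blood and endothelium. It was the only gene of the 10 whose highest cluster was neither 4 nor 5, with 124.1 CPM in cluster 5 and 158.4 CPM in cluster 7.

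**Figure D2:**
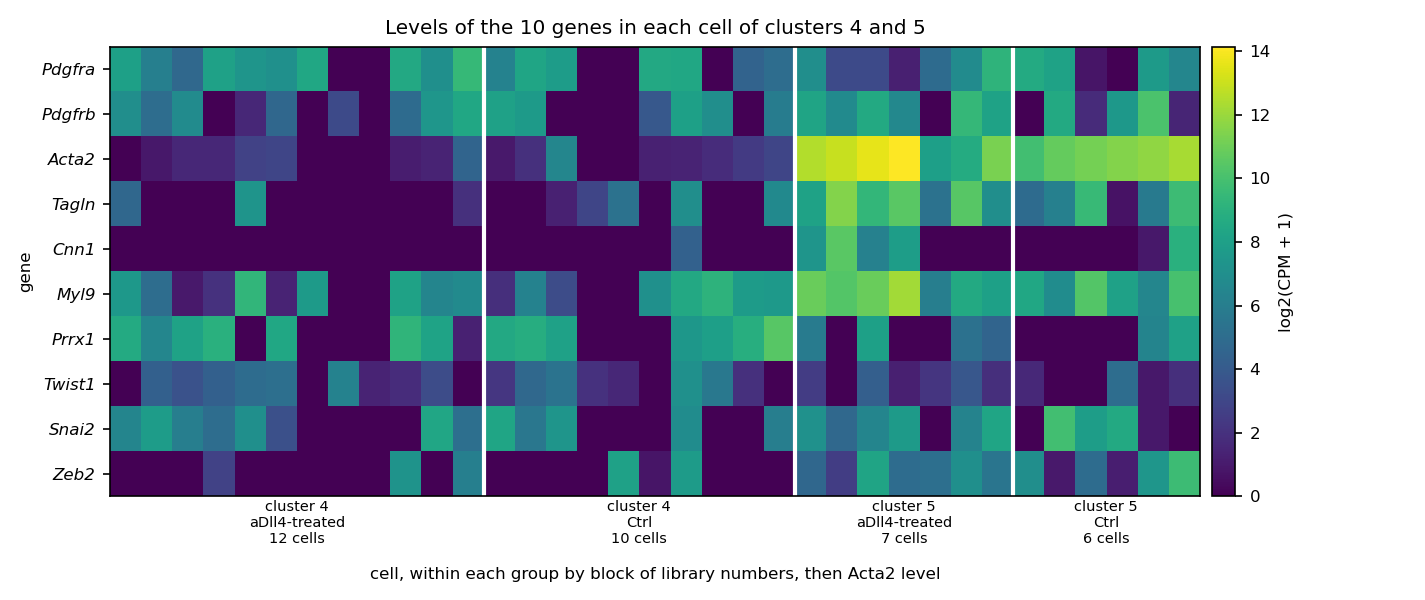
Level of each of the 10 genes (rows, log2(CPM + 1), colour) in each of the 35 cells of clusters 4 and 5 (columns), grouped by cluster and treatment and ordered within a group by block and then by Acta2. Acta2 is high across all 13 cells of cluster 5 and near 0 in most of cluster 4, and 2 cells of cluster 4 hold no gene of the 10 at 10 reads or more.

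Single cells carried these genes in combination. With 10 reads as the minimum, cells of cluster 5 had 5 to 9 of the 10 genes (median 7), and 12 of 13 had at least 3 of the 4 contractile genes. Cells of cluster 4 had 0 to 9 (median 4.5), with 4 or more in 15 of 22. In clusters 1 to 3 the median was 1, and 6 of 395 cells had 4 or more. Over the 13 cells of cluster 5, Pearson's r of log2(CPM + 1) between contractile genes was 0.735 for Acta2 with Cnn1, 0.737 for Cnn1 with Myl9, 0.728 for Acta2 with Myl9, 0.654 for Tagln with Myl9, 0.625 for Tagln with Cnn1 and 0.358 for Acta2 with Tagln. Pairs of other genes reached like values in these cells, 0.722 for Prrx1 with Zeb2 and 0.570 for Pdgfrb with Snai2, and Snai2 with Zeb2 stood at -0.601. In the 22 cells of cluster 4 the higher values were 0.527 for Pdgfra with Snai2, 0.525 for Pdgfra with Myl9 and 0.505 for Pdgfrb with Snai2. These are descriptions of few cells, many of them at 0, that share libraries and embryos.

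Over all 483 cells, the genes most like Pdgfra were Twist2 (r = 0.730), Lrp1 (0.716), Mfap4 (0.709), Gpc6 (0.700) and Ptn (0.671), and all 5 were at 24.6 CPM or more in both cluster 4 and cluster 5. Those most like Acta2 were Col6a1 (r = 0.616), Col1a1 (0.591), Postn (0.581), Hand1 (0.559) and Krt8 (0.552). Each of these was higher in cluster 5 than in cluster 4, Col1a1 at 2217 against 204.2 CPM and Krt8, a keratin of simple epithelia, at 299.8 against 10.5 CPM. For Zeb2 the closest were Tspan32 (r = 0.348), Atp2a3 (0.337), Btk (0.334), Unc13d (0.331) and Slc35d3 (0.328), genes at 83.6 CPM or more in the blood clusters. In counts this sparse the weak values for Zeb2 are no finding. All these correlations are over cells that share libraries and differ in depth.

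Lists of related genes were counted in the same contrasts, beside the 13.2% of measured genes that were at least 2-fold higher and the 16% that were lower in cluster 4, and the 12% higher and 16.4% lower in cluster 5. Of 15 measured fibroblast and matrix genes, 11 were at least 2-fold higher and 1 lower in cluster 4 than in clusters 1 to 3. In cluster 5, 12 were higher and 0 lower. Col3a1, a fibrillar collagen, stood at 485 CPM in cluster 4 and 3903 CPM in cluster 5. The matrix protein gene Postn stood at 57.3 and 2290 CPM in the same order. The intermediate filament gene Vim stood at 552 CPM in cluster 4 and 2647 CPM in cluster 5, and at 3244 CPM in clusters 1 to 3. Of 18 measured smooth muscle and pericyte genes, 5 were at least 2-fold higher and 5 lower in cluster 4, and 14 higher and 3 lower in cluster 5. Tpm1 (tropomyosin) stood at 387 CPM in cluster 4 and 2099.9 CPM in cluster 5, Flna (filamin) at 293 and 939.8, Csrp2 at 138.3 and 620.1, and Cald1 (caldesmon) at 197.8 and 576. Of 15 mesenchymal transcription factors, 10 were higher and 2 lower in cluster 4, and 9 higher and 3 lower in cluster 5. Zeb1 was lower in both, at 49.2 CPM in cluster 4 and 59.1 CPM in cluster 5 against 173.9 CPM in clusters 1 to 3. So was Foxc1, at 10.9 and 7.86 against 23.2 CPM. Osr1, a factor of intermediate mesoderm, stood at 212.7 CPM in cluster 4 and 38.1 CPM in cluster 5, and Prrx2, a relative of Prrx1, at 85.7 and 9.49. Msx1 stood at 132.3 CPM in cluster 4 and 89.7 CPM in cluster 5, and Snai1 at 120.5 and 43.5.

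Of 7 genes of the SRF and myocardin pathway, 1 was at least 2-fold higher and 3 lower in cluster 4, where 13.2% and 16% of measured genes were. In cluster 5, 2 were higher and 2 lower, where 12% and 16.4% were. Srf itself stood at 27.4 CPM in cluster 4, 26.5 CPM in cluster 5 and 15.1 CPM in clusters 1 to 3. Myocd, the myocardin gene, had a read in 4 of 13 cells of cluster 5 (4.61 CPM) and in 6 of 22 cells of cluster 4 (0.342 CPM), with 10 reads or more in 3 and 0. In clusters 1 to 3 it had a read in 18.2% of cells. Gata6, a factor of vascular smooth muscle among other tissues, was read in 10 of 13 cells of cluster 5. It stood at 74.9 CPM in cluster 4, 114.1 CPM in cluster 5 and 14.8 CPM in clusters 1 to 3. Mrtfb and Mef2c, of the same list, went the other way. Mrtfb stood at 23.6, 51.7 and 109.5 CPM in the same order, and Mef2c at 30.6, 46.9 and 303.3 CPM. Of the 4 PDGF ligand genes, Pdgfb stood at 0.146 CPM in cluster 4 and 8.77 CPM in cluster 5, against 92.6 CPM in clusters 1 to 3. Pdgfc was the reverse, at 81.7 CPM in cluster 4, 28.3 CPM in cluster 5 and 3.39 CPM in clusters 1 to 3. Pdgfa stood at 25.8 CPM in cluster 4 and 24 CPM in cluster 5, and Pdgfd at 1.51 and 22.9.

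Markers of other cell types were checked in the same cells. All 12 endothelial genes were at least 2-fold lower in clusters 4 and 5 than in clusters 1 to 3. Their summed level had a median of 43.1 CPM per cell in cluster 4 (6.82 to 1177), 124.4 CPM in cluster 5 (19.4 to 4012) and 9673 CPM in clusters 1 to 3. Summed over cells, the genes of the sort were low as well. Pecam1, which encodes CD31, stood at 10.5 CPM in cluster 4 and 6.82 CPM in cluster 5 against 954 CPM in clusters 1 to 3, and Kit at 48.2 and 34.1 against 289. Ptprc, which encodes CD45, had 1 read in 1 cell of each of clusters 4 and 5. The counts of the other lists stand beside the shares of all measured genes given above. Of 8 measured genes of mesonephric and coelomic epithelium and gonad, 5 were higher and 1 lower in cluster 4, and 6 and 0 in cluster 5. Krt18 stood at 95 CPM in cluster 4 and 384 CPM in cluster 5, and Krt19 at 0.0488 and 169.4 CPM. Of 12 blood cell genes, 2 were higher and 4 lower in cluster 4, and 0 higher and 6 lower in cluster 5. Of 4 measured germ cell genes, 3 were higher and 1 lower in cluster 4, and 1 and 1 in cluster 5. For 4 measured genes of neural crest, neurons and melanoblasts the counts were 2 and 2, and 0 and 3. Some of these rested on single cells in cluster 4: 1 of 22 cells held the Pou5f1 reads and 1 the Sox10 reads, and 2 had 10 reads or more of Pf4. Of the 10 genes, 1 treated and 1 Ctrl cell of cluster 4 had none at 10 reads or more. The part of these other cells in the levels of cluster 4 was not tested.

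A trace of these genes also lay in endothelial cells, and it was of several kinds. The most widespread was Acta2, with a read in 266 of 395 cells of clusters 1 to 3 (67.3%, 62.5 to 71.9). Of those, 250 had fewer than 10 reads, and the median was 2. Blood cells, which should lack the gene, had a read in 38 of 53 (71.7%, 57.7 to 83.2), and their median depth was greater. Gene-assigned reads had a median of 849476 in clusters 1 to 3 and 1052300 in clusters 6 and 7. After each cell was thinned to 100000 reads, the shares were 22.8% in clusters 1 to 3 and 30.2% in clusters 6 and 7. The Acta2 share was below that of the blood cells both before and after thinning. Shares with a read were also no higher in clusters 1 to 3 than in blood for Cnn1 (5.57% against 7.55%), Myl9 (27.8% against 34%), Twist1 (36.2% against 71.7%) and Zeb2 (59.2% against 90.6%). Blood cells themselves had 10 reads or more of Acta2 in 4 of 53, of Myl9 in 7, of Twist1 in 5 and of Zeb2 in 41. For these genes they are therefore no measure of background, and the source of the low reads was not tested. By run of 96 library numbers, the Acta2 share in clusters 1 to 3 lay between 62% in run 5 and 76.3% in run 4. Run 5 held no cell of cluster 5, but its cells held 5203 Acta2 reads in all, up to 3626 in 1 cell. Run 4 held 31101, and a link between the reads of a run and its share was not tested. Transcripts of other cells showed the same kind of trace. In clusters 1 to 3, Col1a1 had a read in 22.3% of cells and the platelet factor gene Pf4 in 38.7%, with 10 reads or more in 3 and 12 cells. In the blood clusters, the endothelial gene Cldn5 had a read in 44 of 53 cells and 10 reads or more in 2.

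Beyond that trace, the Acta2 level of clusters 1 to 3, 35 CPM (34.4 to 35.6), came from a few cells. The 11 cells with 100 reads or more held 93.8% of the reads, and without them the level was 2.26 CPM. They were 5 treated and 6 Ctrl cells, 5 of them of cluster 3, with 90.3 to 3951 CPM of Acta2. All but 1 held at least 5115 CPM of the 12 endothelial genes, and that one, a treated cell, held 305 CPM. Whether any of these wells held more than 1 cell was not tested. Pdgfra and Pdgfrb had 10 reads or more in 13 and 3 of the 395 cells, Tagln in 26, Myl9 in 53 and Prrx1 in 10. A single treated cell of cluster 3 had 580 Prrx1 reads together with 78 of Snai2, 31 of Pdgfra, 29 of Pdgfrb and 14 of Twist1, at 1286 CPM of endothelial genes. In the blood clusters, 1 treated cell of cluster 7 held 5782 Myl9 and 388 Cnn1 reads, 72.8% and 100% of those of cluster 7.

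Zeb2 reached 10 reads in many more endothelial cells than the other genes. Snai2 came next, and its interval overlapped that of Myl9 (13.4%, 10.2 to 17.2). Snai2 had 10 reads or more in 71 of 395 cells (18%, 14.3 to 22.1) with a median of 36 reads in cells that had any. In blood, 0 of 53 cells did, which allows a share of up to 5.66% when 0 is set to 3 cells (6.72% as the exact upper limit). Snai2 reached 10 reads in 21.3% of the cells of cluster 1, 18.6% of cluster 2 and 5 of 67 cells of cluster 3. After thinning, 19% of endothelial and 0% of blood cells had a Snai2 read. Zeb2 had 10 reads or more in 41.3% of endothelial cells (36.4 to 46.3), and its level there, 33.5 CPM (32.9 to 34.1), was close to the 37.1 CPM (34.5 to 39.8) of cluster 4. Genes of the blood cells differed there. Gata1 reached 10 reads in 1 of the 395 cells and Pf4 in 12. Laptm5 stood at 88.5 CPM and Coro1a at 17.1 CPM in clusters 1 to 3, and the rest of the blood list was lower. The source of the Zeb2 reads was not tested. Per kilobase of exon, clusters 1 to 3 carried Snai2 at 8.59 CPM and Zeb2 at 1.68 CPM.

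**Figure D3:**
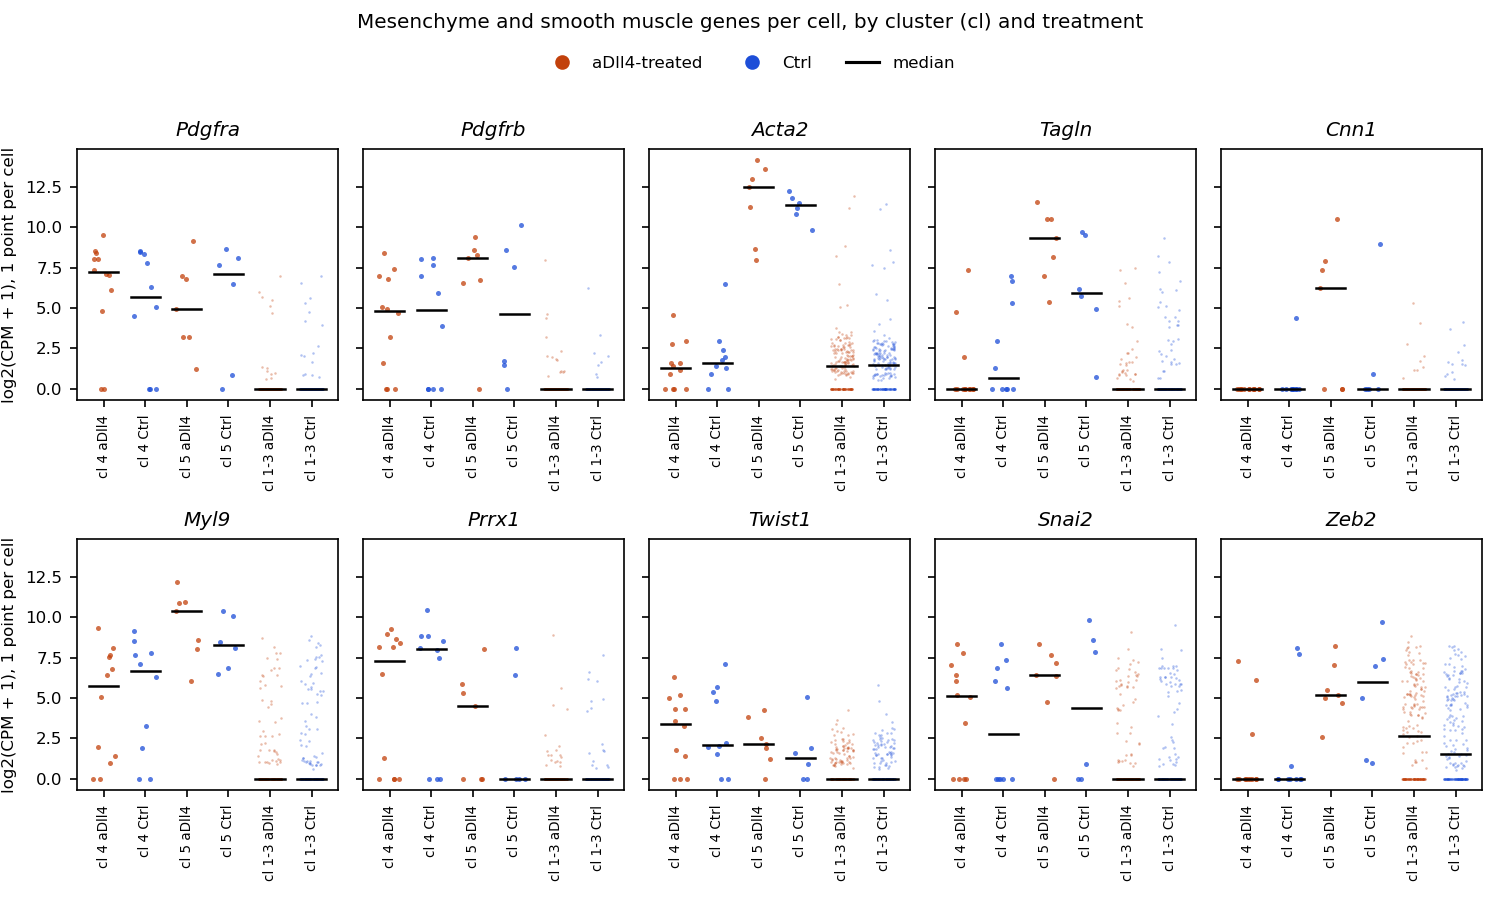
Level of each gene per cell, as log2(CPM + 1), in treated and Ctrl cells of cluster 4, cluster 5 and clusters 1 to 3 (1 point per cell, black line at the median). In cluster 5, treated cells reached 18016 CPM of Acta2 and Ctrl cells 4916 CPM, and the groups overlapped.

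The share of cells that fell in clusters 4 and 5 differed little between treatments. It was 7.79% of treated cells (19 cells, 4.75 to 11.9) and 6.69% of Ctrl cells (16 cells, 3.87 to 10.6). The difference was 1.09 percentage points (-3.68 to 5.87, Newcombe 95% interval of counting error only). In block 1 the shares were 5.62% of treated and 5.11% of Ctrl cells, and in block 2 they were 13.6% and 11.1%. By run, the treated share was higher in runs 1, 4 and 6 and lower in the other three, with 4 of 47 treated and 0 of 40 Ctrl cells in run 4, where a count of 0 allows up to 7.5% when set to 3 cells (8.81% as the exact upper limit). All 6 Ctrl cells of cluster 5 lay in block 1, while 3 of its 7 treated cells lay in block 2.

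Within cluster 5 the summed CPM of the 4 contractile genes was higher in treated cells and that of Snai2 and Zeb2 lower, on 7 against 6 cells. Acta2 ran from 248.6 over a median of 5736 to 18016 CPM in treated cells, and from 922 over 2639 to 4916 CPM in Ctrl cells. The treated cells lay on both sides of the Ctrl range: the 4 of block 1 were above every Ctrl cell and 2 of the 3 of block 2 were below every one. Summed, Acta2 stood at 6250.4 CPM in treated and 2779 CPM in Ctrl cells, a log2 ratio of treated over Ctrl of 1.17 with 1 CPM added to each. Tagln ran from 39.7 over 646 to 2973 CPM in treated cells and from 0.622 over 61.4 to 821 CPM in Ctrl cells (log2 ratio 2.21). Cnn1 had reads in 4 of 7 treated cells, all of block 1, and in 2 of 6 Ctrl cells, with a highest level of 1482 CPM in treated and 506 CPM in Ctrl cells (log2 ratio 2.50). Myl9 ran from 65.4 over 1314 to 4679.9 CPM in treated cells and from 89.1 over 311 to 1324 CPM in Ctrl cells (log2 ratio 1.26). For all 4 the ranges overlapped.

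Snai2 ran from 0 over 85.3 to 322 CPM in treated cells of cluster 5 and from 0 over 115.7 to 917 CPM in Ctrl cells (log2 ratio -1.30). Zeb2 ran from 4.92 over 35 to 303 CPM in treated cells and from 0.946 over 78.3 to 837 CPM in Ctrl cells (log2 ratio -1.22), and 1 Ctrl cell held 926 of its reads. By cells the order was not the same: 10 reads or more of Snai2 were in 6 of 7 treated and 3 of 6 Ctrl cells, and of Zeb2 in 7 of 7 and 4 of 6. The mean of log2(CPM + 1) was 5.81 in treated and 4.53 in Ctrl cells for Snai2, and 5.46 and 5.21 for Zeb2. Pdgfrb (0.02), Prrx1 (-0.21), Pdgfra (-0.29) and Twist1 (-0.37) were less than 2-fold apart. So 4 of the 10 genes were at least 2-fold higher in treated cells, where 20.5% of 15668 measured genes were, and 2 at least 2-fold lower, where 16.9% were. Over these few cells, 37.3% of genes were 2-fold apart either way. One treated cell, the deepest of cluster 5 with 2237224 reads, held 34.6% of the treated Acta2 reads of the cluster, 61% of those of Tagln and 89.7% of those of Cnn1. Without it the log2 ratios were 1.01 for Acta2, 1.31 for Tagln, -0.30 for Cnn1, 1.26 for Myl9, -0.94 for Snai2 and -0.79 for Zeb2. The Ctrl cell with the Zeb2 reads was also the one with the highest endothelial level. Without it 5 genes were at least 2-fold higher in treated cells and 1 lower. The log2 ratios were then 1.39 for Acta2, 2.82 for Tagln, 1.54 for Myl9, 1.59 for Prrx1, -1.54 for Snai2 and 0.38 for Zeb2, and Cnn1 had 0.166 CPM left in Ctrl cells. In block 1 alone, with 4 treated and 6 Ctrl cells and none left out, the log2 ratios were 1.85 for Acta2, 2.65 for Tagln and 3.28 for Cnn1. They were 1.91 for Myl9, -1.61 for Snai2 and -1.26 for Zeb2. Pdgfra stood there at 27.9 CPM in treated and 141.5 CPM in Ctrl cells (log2 ratio -2.30). Of all genes measured in that block, 42.6% were 2-fold apart.

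In cluster 4 the treatments were closer, and the blocks disagreed. Pdgfra ran from 0 over 150.7 to 721 CPM in the 12 treated cells and from 0 over 54 to 376 CPM in the 10 Ctrl cells (log2 ratio 0.79). Prrx1 ran from 0 over 184.6 to 617 CPM in treated and from 0 over 262 to 1418 CPM in Ctrl cells, with the same summed level, 245.9 and 246.6 CPM. Pdgfrb stood at 91.1 CPM in treated and 85.9 CPM in Ctrl cells, Myl9 at 121.5 and 134.4, Snai2 at 97.1 and 68.4, and Twist1 at 12.6 and 20.9. No gene of the 10 was at least 2-fold higher and 2 were lower, Tagln (8.74 against 19.7 CPM) and Cnn1. Of 16612 measured genes, 16.4% were at least 2-fold higher, 15.6% lower and 32% were 2-fold apart either way. Cnn1 had no read in treated cells and 12 in 1 Ctrl cell. With the 0 set to 3 reads over the treated cells, the summed level was at least 5.42-fold lower, by counting error of reads alone. By cells there was no such bound: 0 of 12 treated cells (exact upper limit 26.5%) and 1 of 10 Ctrl cells had a read. In block 1, 6 of the 10 genes were 2-fold apart, where 39.1% of measured genes were, and in block 2, 7 were, where 44.4% were. Pdgfrb, Acta2, Tagln and Snai2 were so in both blocks, each in opposite directions. Pdgfrb stood at 50.7 CPM in treated and 178.7 CPM in Ctrl cells of block 1, and at 120.3 and 49.3 CPM in block 2. Snai2 stood at 98 and 201.9 CPM in block 1, and at 96.4 and 15.9 CPM in block 2. Block 1 of cluster 4 held 6 treated and 3 Ctrl cells.

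In clusters 1 to 3, 1 of the 10 genes was 2-fold apart, and it was lower in treated cells. Of 18583 measured genes, 3.45% were 2-fold apart and 1.95% lower. Tagln stood at 3.57 CPM (3.29 to 3.87) in treated and 15.5 CPM (15 to 16.1) in Ctrl cells, a log2 ratio of -1.85, with 10 reads or more in 8 treated and 18 Ctrl cells. That is 4.12% of treated and 8.96% of Ctrl cells, a difference of -4.83 points (-10.0 to 0.147). This interval covers counting error over cells only and is no test of treatment. Of the reads, 2 Ctrl cells held 1119 and 861. The log2 ratio was -1.22 without the first of them and -0.41 without both. Myl9 pointed the same way, at 13.3 CPM (12.8 to 13.9) in treated and 26.95 CPM (26.2 to 27.7) in Ctrl cells, with 10.8% and 15.9% of cells at 10 reads. Snai2 reached 10 reads in 17% of treated and 18.9% of Ctrl cells, a difference of -1.90 points (-9.46 to 5.73). Zeb2 reached it in 44.3% of treated and 38.3% of Ctrl cells, a difference of 6.02 points (-3.66 to 15.6), with 4.05 points in block 1 and 11.6 points in block 2. The Acta2 trace was at 10 reads in 3.61% of treated and 4.48% of Ctrl cells.

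Summed over all cells of a treatment, the 4 contractile genes were at least 2-fold higher in treated cells and none of the 10 was 2-fold lower, where 2.81% of 18589 measured genes were 2-fold apart either way, 1.54% higher and 1.27% lower. Acta2 stood at 266 CPM in treated and 116.6 CPM in Ctrl cells (log2 ratio 1.18), Tagln at 53.2 and 22.8 (1.19), Cnn1 at 18.9 and 2.88 (2.36), and Myl9 at 101.3 and 46.2 (1.12). The median of the 10 was 0.50, beside 0.01 over all measured genes. These sums moved with single cells. Without the deepest treated cell of cluster 5, the ratios were 0.67, 0.01, 0.31 and 0.93 in the same order, and 0 of the 10 genes were 2-fold apart. Without the treated cell of cluster 7 named above, Myl9 was no longer 2-fold apart (0.69) and Cnn1 stood at 2.23. Without the Ctrl cell of cluster 5 with the highest endothelial level, the ratios were 1.51, 1.45, 3.85 and 1.28. Counts of cells did not follow the sums. Acta2 reached 10 reads in 18 treated and 17 Ctrl cells and Cnn1 in 7 and 5. Tagln and Myl9 did so in fewer treated than Ctrl cells, 18 and 26 for Tagln and 40 and 46 for Myl9.

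The blocks split further. In block 1, 4 of the 10 genes were at least 2-fold higher in treated cells, where 1.94% of genes were and 3.84% were 2-fold apart either way, and these were the contractile genes. In block 2, 2 were higher, where 6.76% of genes were and 12.9% were apart either way, and these were Pdgfra (40.1 CPM in treated and 11.4 in Ctrl cells) and Pdgfrb (30.4 and 6.36). In block 1 the receptors stood the other way, Pdgfra at 7.30 CPM in treated and 11.3 CPM in Ctrl cells, and Pdgfrb at 8.61 and 15.4. Cnn1 had no read in the 66 treated cells of block 2 and 68 reads in 4 Ctrl cells. With the 0 set to 3 reads over the treated cells it was at least 24.3-fold lower, by counting error of reads alone. Its log2 ratio with 1 CPM added was -0.99, just under 2-fold, so it is not among the genes counted. Outside clusters 4 and 5, 2 of the 10 genes were 2-fold apart, where 3.13% of genes were: Cnn1 (2.24 CPM in treated and 0.346 in Ctrl cells) and Tagln (3.14 and 13.96). The Cnn1 value rested on the treated cell of cluster 7, without which it was 0.284 CPM in treated cells (log2 ratio -0.07). None of the 10 genes pointed the same way in all 6 runs of library numbers. Across runs the Acta2 ratio lay between -5.69 and 7.63, and that of Twist1 between -1.03 and 0.82.

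**Figure D4:**
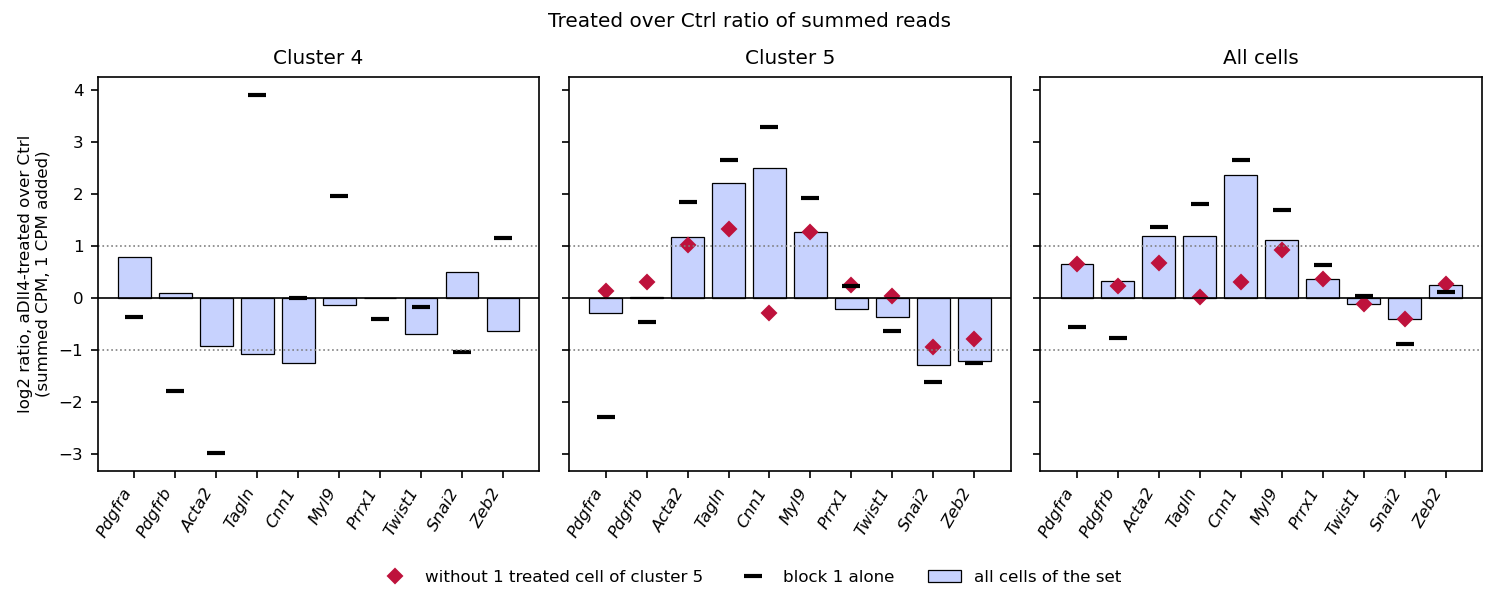
Log2 ratio of summed CPM, aDll4-treated over Ctrl with 1 CPM added, for each gene in cluster 4, cluster 5 and all cells. Bars use every cell of the set, diamonds leave out the deepest treated cell of cluster 5, dashes use block 1 alone, and dotted lines mark 2-fold. Over all cells the 4 contractile genes pass 2-fold, and without that cell none does.

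The related lists were counted in the same contrasts. In cluster 5, treated over Ctrl, where 20.5% of measured genes were at least 2-fold higher and 16.9% lower, 6 of 18 smooth muscle and pericyte genes were at least 2-fold higher and 4 lower, 0 and 6 of 15 fibroblast and matrix genes, 4 and 2 of 14 mesenchymal transcription factors, 1 and 3 of 7 SRF pathway genes, and 3 and 0 of 4 PDGF ligands. In cluster 4, where 16.4% were higher and 15.6% lower, the counts were 3 and 4 of 17, 6 and 1 of 15, 5 and 2 of 15, 1 and 1 of 7, and 1 and 2 of 4. Over all cells, where 1.54% were higher and 1.27% lower, they were 3 and 1 of 18, 0 and 0 of 15, 2 and 1 of 15, 0 and 0 of 7, and 0 and 0 of 4. The fibroblast and matrix genes had a median log2 ratio of -0.58 in cluster 5 and 0.42 in cluster 4, beside 0.06 and -0.02 over all measured genes. None of these counts was tested. Of the 12 endothelial genes, 1 was at least 2-fold higher and 9 lower in treated cells of cluster 5 by summed CPM. Their summed level per cell ran from 70.3 over a median of 135.7 to 488 CPM in treated cells and from 19.4 over 84 to 4012 CPM in Ctrl cells. The 9 rested on the highest Ctrl cell, since without it the next highest Ctrl cell held 504 CPM and 4 genes were at least 2-fold higher and 2 lower.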

How the data were processed

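Single cells were read by Smart-seq2, per the labels' protocols. The authors deposited raw counts for each gene in each cell. The submitters' processing notes name GSNAP, HTSeq 0.6.0 and build mm10. Annotation release, counting settings and cell filters: not given in the sources used here. Reads carry no molecular identifiers and no strand. Every cell was used and doublets were not called.

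Symbols and positions came from GENCODE M21 by Ensembl identifier (45143 matched), and promoters from RefSeq on GRCm38.p6. Counts were summed per group of cells and scaled to CPM with Python 3.11.15, numpy 2.4.6, pandas 2.3.3 and scipy 1.17.1. Figures used matplotlib 3.10.9. A gene was measured if at least 10 cells had a read, and log2 ratios have 1 CPM added, which understates differences of low genes. Calls are ratios of at least 2-fold. Their calculation was checked on simulated Poisson counts over all cells, with no variation between cells except depth and treatment. That check cannot show how reliable calls are where single cells set the sums. The looser CArG search was added after the exact one. The members and the 11 other lists were chosen with earlier results of these data known. From each list up to 4 genes with the highest CPM in cluster 4 or 5 were named, and other genes named were chosen after their values were seen. Likeness was Pearson's r over all cells, for Pdgfra, Acta2 and Zeb2. Alternatives changed the pseudocount, the scaling, the depth, the filter, the block and single cells.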

Additional observations from a re-analysis of the deposited data

Results flagged for a closer look

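Tagln and Cnn1 differed between treatments in opposite directions in clusters 4 and 5. For Tagln the log2 ratio of treated over Ctrl was -1.08 in cluster 4 and 2.21 in cluster 5, so that the ratio in cluster 4 minus that in cluster 5 was -3.30. For Cnn1 the ratios were -1.25 and 2.50, a difference of -3.75. Tagln also stood lower in treated cells of clusters 1 to 3 (-1.85), and its ratio there minus that in cluster 5 was -4.07. None of these differences was tested, since each treatment is 1 sample. In cluster 4 Cnn1 had 0 treated reads and 12 in 1 Ctrl cell, at least 5.42-fold lower by counting error of reads alone. In cluster 5, 1 treated cell held 89.7% of the treated Cnn1 reads, without which the ratio was -0.30. For Tagln the ratio in block 1 of cluster 4 was 3.90, and that in clusters 1 to 3 was -0.41 without 2 Ctrl cells.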

How the results depend on the processing

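No paired analysis was possible because each treatment is 1 sample and the labels number cells, not embryos. Over all cells, 4 genes were 2-fold apart. The count was 2 with 10 CPM added, 1 without the highest cell of each gene in each treatment, 2 in block 2 alone, 2 without clusters 4 and 5, and 0 without 1 treated cell of cluster 5, an alternative chosen after seeing the data. In cluster 4 it was 2, against 0 with 10 CPM added, 1 after thinning, 1 without the highest cells, 6 in block 1 alone and 7 in block 2 alone. In cluster 5 it was 6, against 3 without that treated cell. Log2 ratios of at least 2-fold that changed sign were those of Tagln over all cells without clusters 4 and 5 (-1.85), of Cnn1 and Myl9 in block 2 alone (-0.99 and -0.16), of Tagln in block 1 of cluster 4 (3.90), and of Cnn1 in cluster 5 without the treated cell (-0.30), and of Zeb2 in cluster 5 without 1 Ctrl cell (0.38), also chosen after seeing the data. Smaller ratios changed sign as well. The median share of endothelial cells with a read was 22.3% over the 10 genes and 3.67% at 10 reads. Another 61 alternatives to a count, a median or a share stayed within their limits. Those limits are not given here, so the 61 do not show that these values are stable. For single genes, more alternatives were counted as moved than as unchanged. The causes were not tested. Block 2 gave no value in cluster 5, which had no Ctrl cell there. With 7 and 6 cells in cluster 5, single deep cells set the sums.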
